A study of Mus musculus with 19 samples.

Results

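The transcripts of 9 muscle transcription factors were followed in the quadriceps of mice that model spinal and bulbar muscular atrophy (SBMA), a neuromuscular disease in which a polyglutamine tract of the androgen receptor is expanded. The factors are Myod1, Myf5, Myf6 and Myog, Pax7 and Pax3, and Mef2a, Mef2c and Mef2d, chosen by gene name on an Agilent one-colour array. They had 14 of the 39429 probes on the array that do not serve as controls. The mice were congenic C57Bl6J males aged 180 days, either wild type (CTR) or AR113Q knock-in, whose endogenous androgen receptor gene carries the expanded repeat in every tissue that expresses it. From day 40 the food was either normal chow (NCD) or rich in fat (HFD). The 19 arrays were 5 of CTR and 5 of AR113Q muscle on the NCD, and 4 of CTR and 5 of AR113Q muscle on the HFD. The sources used here do not say whether each array holds the RNA of 1 mouse, so that the p-values measure the spread between arrays, which may be partly technical. The RNA came from whole muscle, in which fewer cells of a type and less RNA per cell cannot be told apart.

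Myod1, Myf5, Myf6 and Myog are basic helix-loop-helix (bHLH) proteins that pair with E proteins on E-box sequences and direct muscle precursors to become muscle. Pax7 and Pax3 are paired-box proteins that act before them, and Pax7 marks the satellite cells that lie beside the adult fiber. The MEF2 proteins bind an AT-rich motif, work together with the bHLH factors and are held in check by class II histone deacetylases. Myogenin, the protein of Myog, is needed for fusion and differentiation in the embryo, and in adult fibers it is known as a factor that is kept low by nerve activity and that acts on the genes of the acetylcholine receptor.

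Of the members, Myog passed the test under the main settings and the others did not, so its proximal promoter is shown. The 250 bases before its start site (GRCm38.p6, chr1:134289754-134290003, + strand, from RefSeq) are printed 5′ to 3′ with matches to the E-box CANNTG in capitals.

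Myog: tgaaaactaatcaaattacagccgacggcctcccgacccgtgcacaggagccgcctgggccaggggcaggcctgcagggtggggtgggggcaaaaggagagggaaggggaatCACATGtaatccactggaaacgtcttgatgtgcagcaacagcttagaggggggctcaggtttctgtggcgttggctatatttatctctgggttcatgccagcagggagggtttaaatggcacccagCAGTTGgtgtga

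It held 2 matches, CACATG starting 138 bases and CAGTTG starting 12 bases before the start site. The fixed letters of this E-box read the same on both strands, so that 1 search covers both, and it was found in 72.3% of the 32851 reference promoters of 300 bases (250 before and 50 after the start), so that its presence is common. Neither CAGCTG, a form of the same E-box held by 16.3% of those promoters, nor the MEF2 motif searched on both strands, held by 3.19%, had an exact match in the Myog promoter. The stretch ctatatttat in the printed bases departs from the searched MEF2 pattern in its last letter alone. Near matches of this kind were not counted. A reference promoter was found for 6 of the 9 members. Mef2a held the only match to the MEF2 motif among them, CTAAAAATAG, starting 2 bases before its start. Of the 3 promoters of Mef2c, the first held 2 matches to CANNTG and the third held 1. Those of Myf5, Pax7 and Mef2d held neither motif in the window. A match is a run of letters and was not tested as a binding site.

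Of the 14 probes, 12 were well above background on all 19 arrays, and they covered 8 of the 9 genes. Myf5 (A_51_P188281, mm9 chr10:106919974-106920033, - strand), which acts early in the lineage, was well above background on 0 of 19 arrays in spite of 10 spots on each array, and so was 1 of the 3 Mef2a probes (A_65_P08239, chr7:74378751-74378810, - strand). Neither was tested. No member probe was saturated. Between 67.1% and 80.1% of all probes were well above background on an array, and the arrays lay on 5 slides that held all groups except that slide 4 had no CTR-HFD array. All values below are log2 signals from which the array's own 75th percentile was subtracted, so that a level of 0 is that percentile and a difference of 1 is a doubling. Levels are compared between groups for 1 probe at a time and never between probes.

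**Figure D1:**
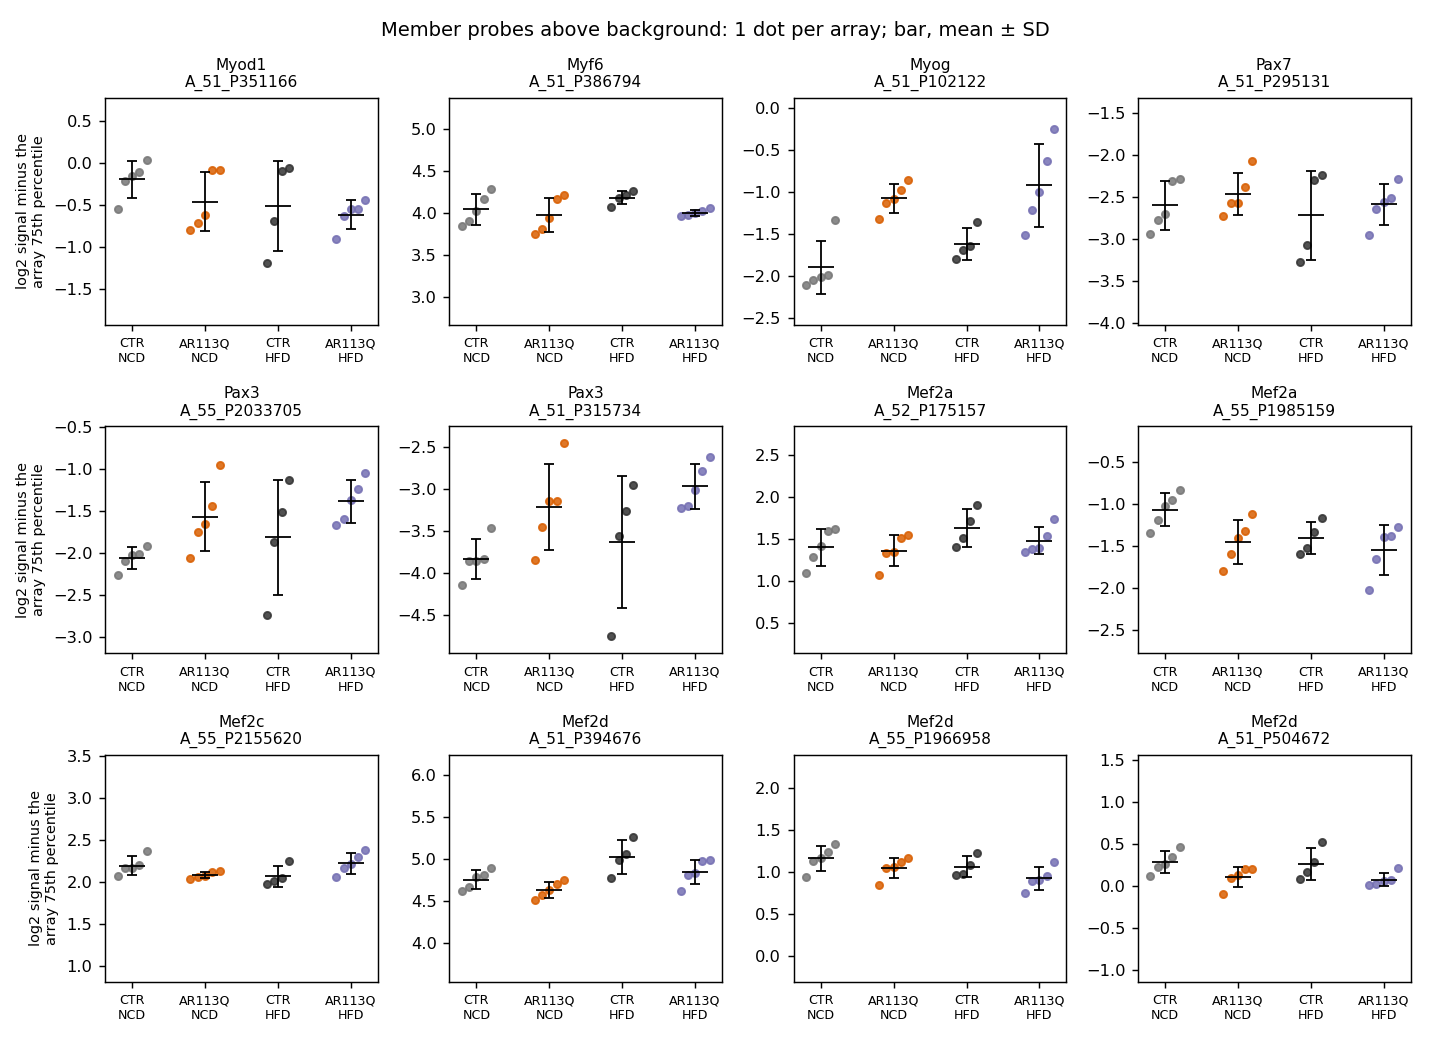
Log2 signal minus the 75th percentile of the array (vertical axis) for the 12 member probes above background in the 4 groups (horizontal axis). Each dot is 1 array and the bars give the mean ± SD (n = 5, 5, 4 and 5). Every panel spans the same number of log2 units, so that spreads can be compared by eye. The Myog dots of AR113Q-NCD lie between -1.32 and -0.86 and all CTR-NCD dots lie below them.

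Myog (A_51_P102122, mm9 chr1:136188874-136188933, + strand) was higher in AR113Q muscle on both diets. The 5 CTR-NCD arrays read -1.34, -1.98, -2.05, -2.11 and -2.01, and the 5 AR113Q-NCD arrays read -1.14, -0.86, -1.32, -1.09 and -0.97. Each AR113Q-NCD array was therefore above every CTR-NCD array, although the gap was narrow because CTR-NCD replicate 1 lay well above the other 4 controls. The means were -1.90 ± 0.32 (SD, n = 5) in CTR-NCD and -1.07 ± 0.17 (SD, n = 5) in AR113Q-NCD, a log2 difference of 0.82 (SE 0.20, 95% interval 0.40 to 1.24) and a 1.77-fold higher level (95% interval 1.32 to 2.37). Limma with Benjamini-Hochberg adjustment over 32026 probes gave an adjusted p of 0.00836. Without CTR-NCD replicate 1 the difference was 0.96, and it stayed between 0.77 and 0.96, with adjusted p at most 0.0240, in the 19 fits that each left out 1 array.

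For the second diet, the 4 CTR-HFD arrays read -1.35, -1.69, -1.80 and -1.64 for Myog. The 5 AR113Q-HFD arrays read -0.63, -0.996, -1.51, -1.22 and -0.25 and were the most scattered of the groups. The groups overlapped, because AR113Q-HFD replicate 3 lay below CTR-HFD replicate 1. The means were -1.62 ± 0.19 (SD, n = 4) and -0.92 ± 0.49 (SD, n = 5), a log2 difference of 0.70 (SE 0.21, 95% interval 0.25 to 1.15), or 1.63-fold (1.19 to 2.22), with a limma adjusted p of 0.0288. This call was not firm. It was lost without CTR-HFD replicate 2 (adjusted p = 0.0691), CTR-HFD replicate 3 (0.0709), CTR-HFD replicate 4 (0.0635), AR113Q-HFD replicate 1 (0.0692) or AR113Q-HFD replicate 5 (0.0685), with differences between 0.54 and 0.70. It was also lost with median centring (adjusted p = 0.0502), with array weights (0.0797) and when only the HFD arrays entered the fit (0.106), and both calls were lost with a normexp background correction. That correction moved the median difference of all tested probes on the NCD to -0.55, and Myog stood 0.72 above that median on the NCD and 0.61 above the median on the HFD, against 0.87 and 0.77 in the main setting. Normexp values of other genes on the NCD, given below, include this shift.

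The 10 spots of the Myog probe on an array differed little, with a median SD of 0.06 log2 units within an array, which is smaller than the SD between arrays of any group. Both groups of a diet were also compared on the same slide. On the NCD the Myog difference was positive on 5 of 5 slides and ran from 0.20 on slide 1 to 1.13 on slide 2. On the HFD it was positive on 4 of 4 slides that held both groups, from 0.29 on slide 3 to 1.40 on slide 5. With slide as a fixed block the adjusted p was 0.00279 on the NCD and 0.00692 on the HFD. The comparisons on the NCD and on the HFD share no array.

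**Figure D2:**
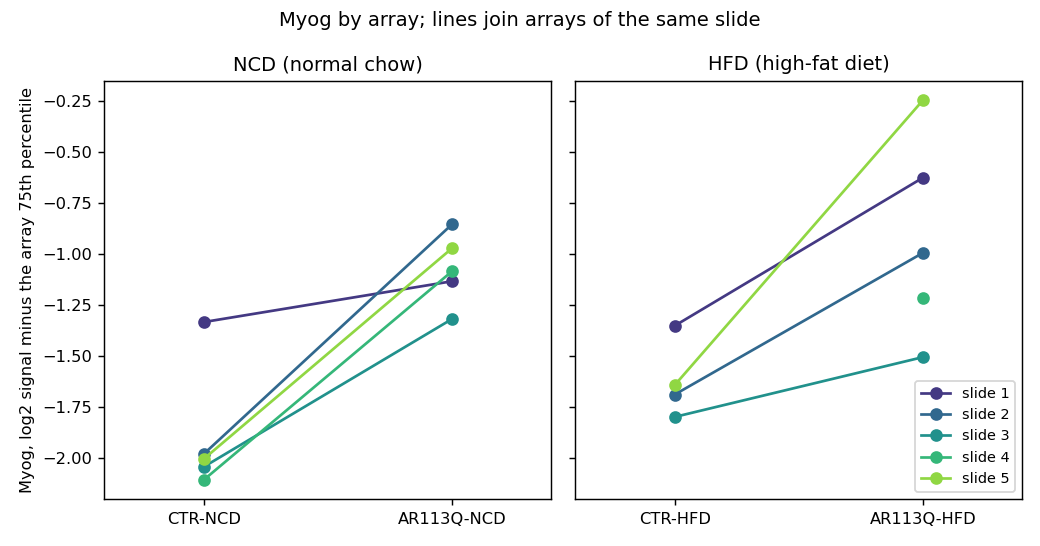
Myog log2 signal minus the 75th percentile of the array (vertical axis) in CTR and AR113Q muscle (horizontal axis) on the NCD, left, and the HFD, right. Points are arrays and lines join the arrays of 1 slide. All 9 lines rise, and slide 4 has no CTR-HFD array, so that its AR113Q-HFD array stands alone.

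The diet did not move Myog past the test in either genotype. The difference between AR113Q-HFD and AR113Q-NCD was 0.16 (95% interval -0.27 to 0.58, limma adjusted p = 0.990), and between CTR-HFD and CTR-NCD it was 0.27 (-0.18 to 0.72, adjusted p = 0.783). The effect of the genotype differed between diets by -0.12 (95% interval -0.74 to 0.50, adjusted p = 0.9997), an interval that leaves room for differences in either direction.

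Read over all members, 1 of the 12 probes was called higher and 0 lower on the NCD, a share of 8.33%, where 8.29% of all tested probes were called higher, 9.28% lower and 17.6% in either direction. The count on the HFD was again 1 higher and 0 lower, where 8% of all tested probes were called higher, 9.93% lower and 17.9% in either direction. The share among the members was thus near that of the whole array, and the calls concern Myog and not the 9 factors as a group. The median log2 difference over the 12 probes was -0.09 on the NCD and -0.12 on the HFD, beside -0.05 and -0.07 over all tested probes. At an unadjusted p under 0.05 there were 3 member probes on the NCD and 2 on the HFD, where 28.5% and 29% of all probes passed. Groups that did not overlap were seen in 1 of 12 member probes on each diet (Myog on the NCD and Myf6 on the HFD), against 15.6% and 15.7% of all probes with a value on every array compared.

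**Figure D3:**
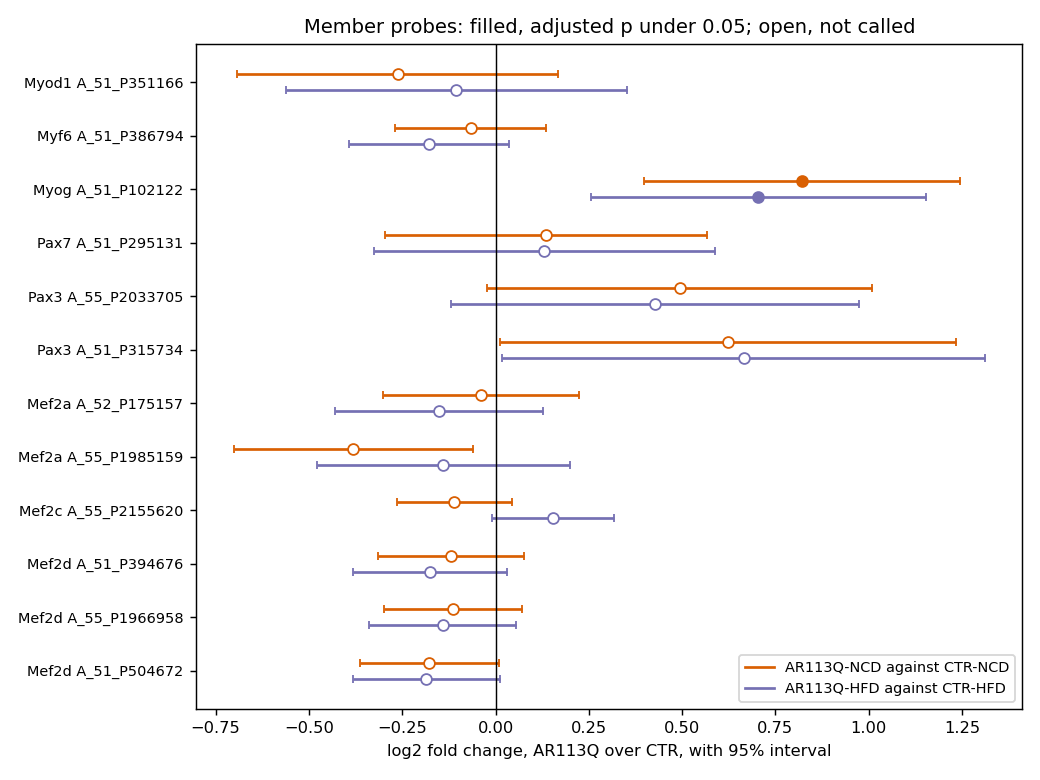
Log2 fold change of AR113Q over CTR (horizontal axis) with its 95% interval for each of the 12 member probes (vertical axis), on the NCD in orange and on the HFD in purple. Filled points have an adjusted p under 0.05. Only the 2 Myog points are filled, at 0.82 and 0.70, and the 2 Pax3 probes come next with wide intervals.

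Myod1 (A_51_P351166, mm9 chr7:53633956-53634015, + strand), which commits precursors to the muscle lineage, tended the other way from Myog without passing the test. Its arrays read 0.04, -0.16, -0.11, -0.55 and -0.22 in CTR-NCD and -0.71, -0.08, -0.63, -0.81 and -0.08 in AR113Q-NCD. The groups overlapped, with 2 AR113Q-NCD arrays above 4 of the 5 controls. The difference was -0.26 (95% interval -0.69 to 0.17, limma adjusted p = 0.456) on the NCD. On the HFD, CTR-HFD arrays lay between -1.20 and -0.06 and AR113Q-HFD arrays between -0.91 and -0.45, a difference of -0.11 (-0.56 to 0.35, adjusted p = 0.806). Its sign turned on the HFD without CTR-HFD replicate 1 (0.04) or replicate 2 (0.03).

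Myf6 (A_51_P386794, mm9 chr10:106930237-106930296, - strand) codes for MRF4, the myogenic bHLH factor that prevails in mature fibers. On the NCD its level was 4.05 ± 0.18 (SD, n = 5) in CTR-NCD and 3.98 ± 0.21 (SD, n = 5) in AR113Q-NCD, a difference of -0.07 (95% interval -0.27 to 0.14, limma adjusted p = 0.721) whose sign turned with quantile normalization (0.01), the authors' table (0.01) and normexp (0.20). The 4 CTR-HFD arrays read 4.26, 4.18, 4.07 and 4.22, and the 5 AR113Q-HFD arrays read 3.998, 4.02, 3.98, 3.97 and 4.06. All 5 lay below the 4 controls, but by a margin of hundredths, and the difference of -0.18 (-0.39 to 0.04, adjusted p = 0.272) was not called.

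Pax3, a regulator of migrating muscle precursors that some adult satellite cells keep, was read by 2 probes on neighbouring stretches of chromosome 1 (mm9). The probes rose and fell together over the 19 arrays (r = 0.98, n = 19 arrays that share sample and hybridization), and also after the group means were taken out (r = 0.98). A_51_P315734 (chr1:78099476-78099535, - strand) read -3.83, -3.85, -4.14, -3.86 and -3.47 in CTR-NCD and -3.85, -3.45, -3.14, -3.13 and -2.45 in AR113Q-NCD. In AR113Q-NCD, 4 arrays lay above every control and replicate 1 did not. The difference was 0.62 (95% interval 0.01 to 1.23, unadjusted p = 0.0458, limma adjusted p = 0.165). In the HFD groups the CTR-HFD arrays read -3.26, -2.95, -4.75 and -3.56 and the AR113Q-HFD arrays -3.01, -3.23, -2.78, -2.61 and -3.20. CTR-HFD replicate 3 was far below the rest, and the difference of 0.66 (0.02 to 1.31, unadjusted p = 0.0447, adjusted p = 0.160) fell to 0.29 without it. A_55_P2033705 (chr1:78099294-78099353, - strand) gave 0.49 (adjusted p = 0.198) and 0.43 (adjusted p = 0.304). With normexp both probes turned sign on the NCD (-0.54 and -0.04), where the median of all tested probes was -0.55. Pax3 was thus not called on either diet, while its intervals allowed a change of up to 2.35-fold on the NCD and 2.48-fold on the HFD.

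Pax7 (A_51_P295131, mm9 chr4:139294364-139294423, - strand), the defining factor of satellite cells, differed by 0.14 (95% interval -0.30 to 0.57, limma adjusted p = 0.733) on the NCD and by 0.13 (-0.33 to 0.59, adjusted p = 0.754) on the HFD. Its arrays read -2.31, -2.77, -2.71, -2.29 and -2.94 in CTR-NCD and -2.07, -2.57, -2.57, -2.39 and -2.74 in AR113Q-NCD, and the groups overlapped. The 4 CTR-HFD arrays fell into a high pair, -2.30 and -2.24, and a low pair, -3.28 and -3.07, while the AR113Q-HFD arrays lay between -2.96 and -2.28. The sign on the HFD turned without CTR-HFD replicate 2 (-0.05), and the sign on the NCD turned with normexp (-0.50), where the median of all tested probes was -0.55.

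Mef2a gave different readings by probe. A_55_P1985159 (mm9 chr7:74379575-74379634, - strand) read -1.03, -1.34, -0.84, -0.96 and -1.19 in CTR-NCD and -1.32, -1.60, -1.41, -1.13 and -1.81 in AR113Q-NCD. It was lower in AR113Q-NCD on 5 of 5 slides, by 0.17 to 0.62, although the groups overlapped. The difference was -0.38 (95% interval -0.70 to -0.06, limma adjusted p = 0.0990), not called. Same-numbered arrays of these 2 groups, which also shared a slide, deviated together. With the replicate number as a block the adjusted p was 0.0397, which raised the count of members called on the NCD from 1 to 2. With slide as a fixed block it was 0.0180. On the HFD this probe differed by -0.14 (-0.48 to 0.20, adjusted p = 0.629). The second probe, A_52_P175157 (chr7:74376573-74376632, - strand), differed by -0.04 (-0.30 to 0.22, adjusted p = 0.889) on the NCD and -0.15 (-0.43 to 0.13, adjusted p = 0.501) on the HFD, and did not follow the first over the 19 arrays (r = -0.02). Its sign on the NCD turned with median centring (0.02), the authors' table (0.02) and normexp (0.18), and without CTR-NCD replicate 4 (0.01), CTR-NCD replicate 5 (0.02) or AR113Q-NCD replicate 1 (0.03).

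Mef2d, a MEF2 factor of adult muscle, was read by 3 probes, and all 3 gave negative differences on both diets, none of them called, except that on the NCD 2 of them turned sign with normexp (0.18 and 0.01) and 1 with the authors' table (0.01). A_51_P394676 (mm9 chr3:87975777-87975836, + strand) differed by -0.12 (95% interval -0.31 to 0.08, limma adjusted p = 0.452) on the NCD and -0.18 (-0.38 to 0.03, adjusted p = 0.255) on the HFD. It was lower in AR113Q on 5 of 5 and 4 of 4 slides, and on the HFD the adjusted p was 0.0221 with slide as a fixed block. A_55_P1966958 (chr3:87972971-87973030, + strand) differed by -0.11 and -0.14, and A_51_P504672, whose 60 bases align over 347 bases of genome (chr3:87972214-87972560, + strand), by -0.18 and -0.19. The last 2 followed each other over the arrays (r = 0.80), while A_51_P394676 followed neither (r = -0.06 and 0.17).

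The diet was nearest to a call in Mef2d. For A_51_P394676 the CTR-NCD arrays read 4.79, 4.67, 4.62, 4.82 and 4.90, and the CTR-HFD arrays 4.99, 5.07, 4.78 and 5.27. The HFD arrays were higher by 0.27 in CTR (95% interval 0.06 to 0.47, unadjusted p = 0.0141, limma adjusted p = 0.474) and by 0.21 in AR113Q (0.02 to 0.41, unadjusted p = 0.0355, adjusted p = 0.712). The other 2 Mef2d probes differed by -0.10 and -0.02 in CTR and by -0.12 and -0.03 in AR113Q, so that the probes of the gene did not share a direction.

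Mef2c, a MEF2 factor whose product helps to organize the sarcomere, was read by A_55_P2155620, whose 60 bases align over 2238 bases of genome (mm9 chr13:83772788-83775025, + strand). Its genotype difference was -0.11 (95% interval -0.27 to 0.04, limma adjusted p = 0.357) on the NCD and 0.15 (-0.01 to 0.32, adjusted p = 0.200) on the HFD. The CTR-NCD arrays read 2.16, 2.17, 2.07, 2.21 and 2.37 and the AR113Q-NCD arrays 2.12, 2.13, 2.04, 2.08 and 2.06. The CTR-HFD arrays read 2.05, 1.97, 2.01 and 2.25 and the AR113Q-HFD arrays 2.22, 2.38, 2.06, 2.30 and 2.17. All 5 AR113Q-HFD arrays lay above CTR-HFD replicates 1 to 3, but CTR-HFD replicate 4 lay among them, and the groups overlapped on both diets. The genotype by diet term was 0.27 (0.04 to 0.49, unadjusted p = 0.0231), with an adjusted p of 0.9997. The sign on the NCD turned with normexp (0.11). On the HFD the gene was called with quantile normalization (0.21, adjusted p = 0.0319) and with the authors' own values (0.20, adjusted p = 0.0369).

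No member was called in either diet comparison or for the genotype by diet term by limma. In AR113Q muscle 0 of 12 probes passed, where 0.025% of all tested probes did (8 of 32026), with differences between -0.16 and 0.24. In CTR muscle 0 of 12 passed, where 0% of all probes did, with differences between -0.34 and 0.27, and for the genotype by diet term 0 of 12 passed, where again 0% did. At an unadjusted p under 0.05 there was 1 member probe in each of these 3 tests, beside 6.73%, 8.66% and 4.65% of all probes. The other 14 settings tried for each diet comparison and the 13 tried for the genotype by diet term also called 0 members.

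Partners and antagonists of the bHLH factors were taken from a list of 17 genes, of which 16 were tested and Hes1 was not above background. On the NCD 4 were called higher and 2 lower, where 9.35% of all tested genes had a probe called higher and 10% a probe called lower. The higher genes were Tcf4, Tcf12, Id1 and Msc. Tcf4 and Tcf12, which code for E proteins that pair with the myogenic factors, rose by 0.36 (SE 0.07, limma adjusted p = 0.00180, but -0.29 with normexp) and 0.35 (SE 0.11, adjusted p = 0.0383) by their most significant probe, while the other Tcf12 probe gave -0.02 (adjusted p = 0.902). Id1, whose product takes E proteins away from the myogenic factors, was higher by 0.52 (SE 0.17, adjusted p = 0.0460), a call kept in 8 of 19 fits that left out 1 array and in 9 of 14 other settings (adjusted p up to 0.142). It was lost without CTR-NCD replicate 1, 2, 4 or 5, AR113Q-NCD replicate 2, 3 or 4, or AR113Q-HFD replicate 1, 2, 3 or 5. Msc codes for musculin, a repressor that binds E-boxes, and rose by 0.43 (SE 0.12, adjusted p = 0.0216, but -0.76 with normexp). Bhlhe41 and Bhlhe40, related bHLH repressors that also belong to the circadian clock, fell by 0.93 (SE 0.11, adjusted p = 2.41e-05) and 0.64 (SE 0.15, adjusted p = 0.00670). The Tcf12 call was lost without CTR-NCD replicate 1, 2, 3 or 5 or AR113Q-NCD replicate 3, 4 or 5, and that of Msc without CTR-NCD replicate 4 or AR113Q-NCD replicate 1 or 3. The count of higher genes was 2 without CTR-NCD replicate 1, 4 or 5 or AR113Q-NCD replicate 4, and 1 without AR113Q-NCD replicate 3.

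In the HFD comparison this list had 2 genes higher, Tcf4 (0.42, SE 0.07, limma adjusted p = 0.000736) and Zeb1, and 3 lower, Bhlhe40 (-0.50, SE 0.16, adjusted p = 0.0379), Bhlhe41 by its second probe (-0.42, SE 0.12, adjusted p = 0.0244) and Hey1. These counts stood beside 8.97% of all tested genes with a probe called higher and 10.9% with a probe called lower. Zeb1 (0.28, adjusted p = 0.0251) and Hey1 (-0.41, adjusted p = 0.00418), a repressor and a Notch target, are named here after their values were seen. Tcf12 (0.29, adjusted p = 0.102), Msc (0.36, adjusted p = 0.0700) and Id1 (-0.09, adjusted p = 0.791) were not called on the HFD. The median over the 16 genes was 0.12 on the NCD and 0.02 on the HFD. The Bhlhe40 call was lost without CTR-HFD replicate 2 or 4 or AR113Q-HFD replicate 1, 3 or 5, and that of Zeb1 without CTR-HFD replicate 2 or 3 or AR113Q-HFD replicate 2. The lower count was 1 without CTR-HFD replicate 2 or 4 or AR113Q-HFD replicate 3 or 5, and the higher count was 1 without AR113Q-HFD replicate 2.

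MEF2 co-regulators were read over 14 genes, with 2 called higher and 2 lower on the NCD and 1 higher and 0 lower on the HFD. Over all tested genes the shares were 9.35% higher and 10% lower on the NCD and 8.97% and 10.9% on the HFD, so that these counts were near the background and say nothing particular about the list. Cabin1, which codes for a calcineurin-binding protein that represses MEF2, rose by 0.43 (SE 0.09, limma adjusted p = 0.00205) on the NCD and by 0.69 (SE 0.09, adjusted p = 5.36e-05) on the HFD by 1 of its 2 probes, and the other gave 0.28 and 0.20, not called. Hdac5, which codes for a class II histone deacetylase that holds MEF2 silent, rose by 0.26 (SE 0.07, adjusted p = 0.0173) on the NCD and differed by 0.17 (adjusted p = 0.139) on the HFD. Carm1, which codes for a methyltransferase that helps MEF2 act, fell by 0.44 (SE 0.11, adjusted p = 0.0113) on the NCD and differed by -0.25 (adjusted p = 0.189) on the HFD. Mapk14, which codes for the p38 kinase that activates MEF2, fell by 0.52 (SE 0.13, adjusted p = 0.00851) on the NCD by 1 of its 2 probes. The other, brighter Mapk14 probe gave -0.16 (limma adjusted p = 0.228) on the NCD. On the HFD the Mapk14 probes gave -0.20 and -0.19, not called. The median over the 14 genes was 0.18 on the NCD and -0.01 on the HFD. Without AR113Q-NCD replicate 2 the Hdac5 call was lost and there was 1 gene higher on the NCD, and without AR113Q-HFD replicate 3 there were 2 higher on the HFD.

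Genes that the myogenic factors are known to act on did not move one way. Of 17 tested, 4 were called higher, 5 lower and 8 not called on the NCD, and 6 higher, 5 lower and 6 not called on the HFD, where 9.35% and 10% of all tested genes had a probe called in these directions on the NCD and 8.97% and 10.9% on the HFD. Chrna1, which codes for the alpha subunit of the muscle acetylcholine receptor, read between 1.46 and 1.54 in the 5 CTR-NCD arrays and between 2.74 and 3.52 in the 5 AR113Q-NCD arrays. It rose by 1.51 (SE 0.15, limma adjusted p = 6.17e-06) on the NCD and by 1.99 (SE 0.16, adjusted p = 1.20e-06) on the HFD, and a second probe gave 1.58 and 2.21. Musk, the receptor kinase that gathers acetylcholine receptors at the synapse, rose by 0.79 (SE 0.18, adjusted p = 0.00572) and 1.22 (SE 0.19, adjusted p = 0.000285). Actc1, the cardiac actin that is also made in young muscle, rose by 1.36 (SE 0.21, adjusted p = 0.000278) and 1.09 (SE 0.23, adjusted p = 0.00268). Chrng, the fetal receptor subunit, differed by -0.05 (adjusted p = 0.938, and 0.07 with quantile normalization) and 0.39 (adjusted p = 0.386), and Myh3, the embryonic myosin heavy chain, by 0.76 (adjusted p = 0.537) and 1.18 (adjusted p = 0.320), with CTR-NCD arrays from -2.95 to -0.42. Neither fetal gene was called on either diet. The paper reports, by real-time PCR, raised Chrng and Musk transcripts in AR113Q quadriceps already at a younger age than studied here. On these arrays Musk was called higher and Chrng was not. The Chrng probe was dim, with a mean level of -4.85. Alone among the 17 targets, it was not well above background on every array. Its lack of a call therefore does not show that Chrng was unchanged.

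The genes that fell included Fbxo32, which codes for the ubiquitin ligase subunit atrogin-1, by 1.76 (SE 0.19, limma adjusted p = 1.17e-05) on the NCD and 1.69 (SE 0.21, adjusted p = 3.03e-05) on the HFD. Trim63, which codes for the ubiquitin ligase MuRF1, fell by 0.73 (SE 0.14, adjusted p = 0.00183) on the NCD, and on the HFD this probe gave -0.45 (adjusted p = 0.0523) while the second probe was called (-0.50, adjusted p = 0.0189). Ckm, the muscle creatine kinase, fell by 0.70 (SE 0.07, adjusted p = 9.04e-06) and 0.72 (SE 0.08, adjusted p = 1.37e-05). Myh8, the perinatal myosin heavy chain, fell by 1.004 (SE 0.13, adjusted p = 3.63e-05) and 1.30 (SE 0.13, adjusted p = 6.80e-06) by 1 of its 3 probes. A second probe was called on the HFD (-0.37, adjusted p = 0.00966) and the third on neither diet, and since the myosin genes are near-identical in places, a probe may also read a neighbour. The genes called beyond those the naming rule gave, named after their values were seen, were Cdkn1a (0.94 and 1.11 by 1 of its 3 probes) and Cav3 (-0.35 and -0.31) on both diets and Chrnb1 (0.99) and Des (0.32) on the HFD. The other Cdkn1a probes gave 0.75 and -0.25 on the NCD, not called, so that the probes of this gene did not share a direction there. On the HFD, the Cav3 call was lost without CTR-HFD replicate 1, 2 or 4 or AR113Q-HFD replicate 1, 3 or 5, and the Des call without CTR-HFD replicate 2, 3 or 4 or any AR113Q-HFD replicate but 4. The lower count on the HFD was 3 without CTR-HFD replicate 2 or 4 or AR113Q-HFD replicate 3.

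**Figure D4:**
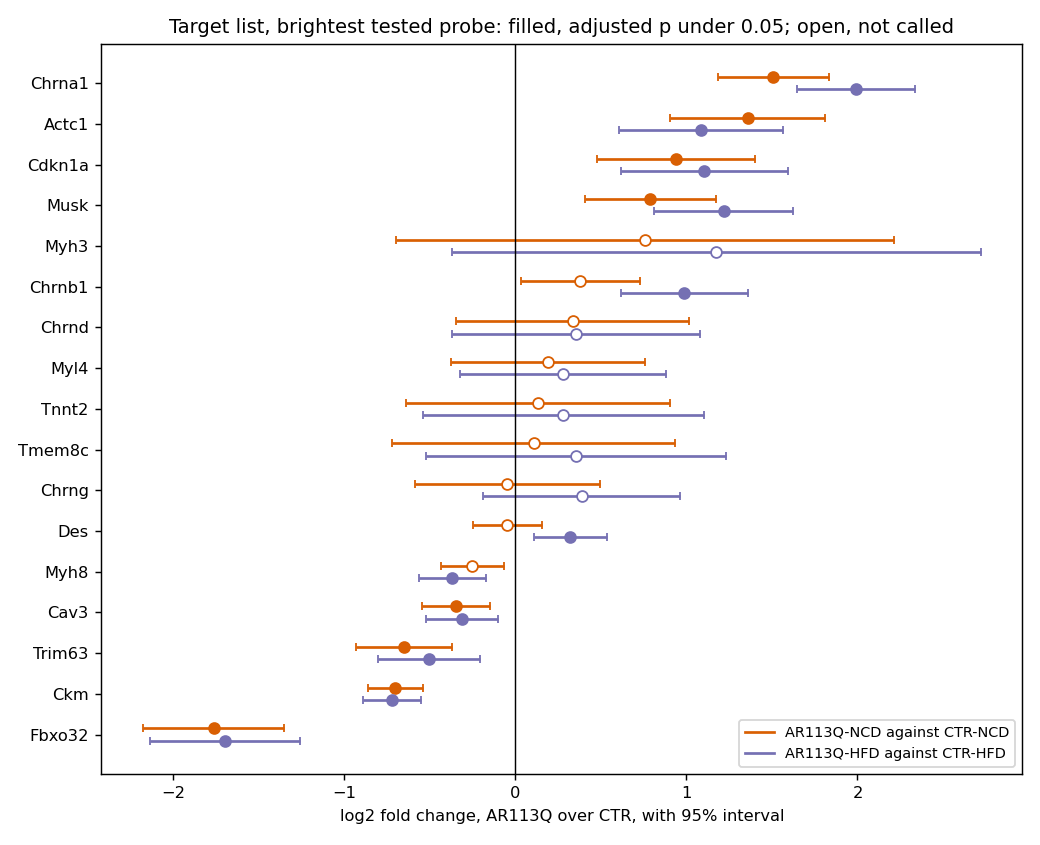
Log2 fold change of AR113Q over CTR (horizontal axis) with its 95% interval for the 17 target genes (vertical axis, ordered by the value on the NCD), each by its brightest tested probe. Orange stands for the NCD, purple for the HFD and filled points for an adjusted p under 0.05. Chrna1 lies at the top with 1.51 and 1.99 and Fbxo32 at the bottom with -1.76 and -1.69. Myh8 is open on the NCD because its call there came from another probe.

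Over the 19 arrays the Myog signal followed that of Chrna1 (r = 0.85), Musk (r = 0.79) and Myl4 (r = 0.68) and ran against that of Fbxo32 and Ckm (both r = -0.79). After the group means were taken out, r was 0.59 for Chrna1, 0.36 for Musk, 0.73 for Myl4, -0.18 for Fbxo32 and -0.09 for Ckm. For Actc1, called higher on both diets, r was 0.59 over the arrays and turned to -0.50 without the group means, while Chrnb1 gave 0.71 and 0.31 and Cdkn1a 0.68 and 0.21. These are descriptions over arrays that share the genotype difference, and all values of an array come from 1 hybridization. Among all tested probes of other named genes, those most like Myog over the 19 arrays were Med27, Telo2 and Eny2 (r = 0.91, 0.91 and 0.90). The nearest to the other members were Nfkbib to Myod1 (r = 0.88), Nop2 to Myf6 (r = 0.87), 1810041L15Rik to Pax7 (r = 0.82), Fsbp to Pax3 (r = 0.89), Ppil3 to Mef2a (r = 0.95), Ranbp10 to Mef2c (r = 0.81) and Rbm33 to Mef2d (r = 0.94).

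Markers of the cells that whole muscle can hold were read beside these results. All 6 myofiber markers were well above background on all 19 arrays. So were all markers of the other cell types, so that detection does not tell the cell types apart. Of the myofiber markers, 5 (Pvalb, Myh4, Tnnt3, Ckm and Acta1) were called lower in AR113Q on both diets. The remaining marker, Myh1, was not called. The highest difference among the 6, by brightest probe, was 0.45 on the NCD and 0.16 on the HFD. The authors count Myh4 and Pvalb as markers of glycolytic fibers and reported them as unchanged, with a fold threshold for their gene lists. Of 14 further satellite cell markers, Calcr and Megf10 were called higher and Cdh15 lower on the NCD, and Vcam1, Sdc4 and Itga7 higher on the HFD, beside 9.35% of all tested genes called higher and 10% lower on the NCD and 8.97% and 10.9% on the HFD. The counts on the NCD were near that background. The mean level of the 13 satellite cell markers measured on every array lay between -0.29 and -0.18 in CTR-NCD and between -0.11 and 0.07 in AR113Q-NCD, and between -0.28 and -0.18 in CTR-HFD and -0.11 and 0.05 in AR113Q-HFD. This mean was thus above that of the controls on every AR113Q array, while Pax7 itself was not called. The single genes did not share a direction. By brightest probe their differences ran from -0.41 to 0.60 on the NCD and from -0.28 to 0.59 on the HFD, and 11 of the 14 were not called on each diet. Of single probes, 15.6% on the NCD and 15.7% on the HFD did not overlap, and no such share was taken for means of lists. The mean of the 6 myofiber markers was also apart on the HFD, at 8.18 to 8.43 in AR113Q-HFD and 8.54 to 8.93 in CTR-HFD. It overlapped on the NCD. The part of satellite cells in the Myog difference was not tested. Of the macrophage (6), adipocyte (4), fibro-adipogenic (4) and smooth muscle (3) markers 0 were called, and of the 4 Schwann cell and 4 endothelial markers S100b was called higher on the NCD and Kdr lower on the HFD.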

How the data were processed

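Total RNA of quadriceps was labelled with Cy3 and hybridized to Agilent mouse 4x44K arrays, and the authors took spot intensity values from the scans with Feature Extraction 10.7.3.1, which subtracts background and removes spatial trends within an array. The deposited processed intensity was used, log2-transformed, with spots marked as outliers left out, spots of a probe averaged and the 75th percentile of each array subtracted. A table of log2 values deposited by the authors (25944 probes, 10 of them of members, column medians 7.59 to 7.65) was an alternative; its normalization is not given in the sources used here. Its values correlated with the log2 scanner signal at 0.98 on each array, with slopes of 0.88 to 0.96. After the mean of each probe over the arrays was taken out, the correlation was 0.85 to 0.92.

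Tests covered 32026 of 39429 probes, those for which a share of 0.5 or more of the spots passed Agilent's background test on 4 arrays or more, and were run with limma 3.58.1 (R 4.3.3, default eBayes, 4 group means in 1 fit) with Benjamini-Hochberg adjustment, called at adjusted p under 0.05. A gene was called when any probe was. In simulated data of 31907 probes with 100 of them changed by 0.6 on the log2 scale, 48% were called on the NCD and 49% on the HFD, and of 100 changed by 1 on that scale 68% and 66%. In the real data many more probes were called, 5625 on the NCD and 5741 on the HFD. The adjustment was therefore stricter in the simulation, and its shares do not measure the sensitivity of the tests reported here. The number of arrays limits the precision. Replicate numbers from the titles follow the slides except for CTR-HFD replicate 4. Deviations of same-numbered CTR-NCD and AR113Q-NCD arrays correlated at 0.24 to 0.45 in all 5 pairs. Each of these pairs shared a slide, so that a pairing by number and an effect of the slide cannot be told apart. The main fit used neither, and both blocks were run as alternatives. Members, lists and motifs were chosen with earlier results of these data known. Of each list, the genes called in a genotype comparison were named, at most 6 by the smallest adjusted p on the NCD, besides Chrng, Chrna1, Musk, Myh3, Fbxo32 and Trim63. Markers were named only where called. Alternatives covered normalization, background correction, the dim-probe filter, outlier spots, slide and replicate blocks, array weights, the variance model, the fold threshold, the arrays in the fit and each array left out.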

Additional observations from a re-analysis of the deposited data

Results flagged for a closer look

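In 48 groups of 4 or 5 arrays (12 member probes in 4 groups), 2 held an array that stood apart from the rest of its group by Dixon's test at the 95% level, and chance alone flags about 1 group in 20. CTR-NCD replicate 1 read -1.34 for Myog, above the other 4 arrays of its group, of which the nearest read -1.98, a gap of 0.84 of the group's range. AR113Q-HFD replicate 2 read 0.22 for the Mef2d probe A_51_P504672, where the nearest array of its group read 0.06, a gap of 0.75 of the range. No member probe differed between diets in its genotype effect by limma's test of the difference after adjustment.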

How the results depend on the processing

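Of 237 comparisons of a count with its value under another setting, 192 stayed within 1.5 times, and of 1145 such comparisons of single probes, 1030 kept their direction and side of the threshold, 68 lost their call, 20 gained one and 27 turned sign. The causes were not tested unless named.

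For the members the count called on the NCD, 1, was 0 with normexp and 2 with slide as a fixed block, with slide as a random block and with the replicate block (Myog and Mef2a). On the HFD the count of 1 was 0 with median centring, normexp, array weights and only the groups compared (where fewer arrays entered the fit), 2 with quantile normalization, the authors' table, slide as a fixed block and the replicate block, and 3 without a filter on dim probes (Myog and the probes of Myf5 and Mef2a that were not above background). With the replicate block Myog gave 0.82 (adjusted p = 0.00276) on the NCD and 0.65 (adjusted p = 0.0168) on the HFD. Same-numbered HFD arrays of both genotypes correlated at -0.21 to 0.43 and 2 of 4 matched best, and those numbered 4 lay on different slides. A pairing of the HFD arrays by number was therefore not shown.

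Of partners and antagonists, the genes higher on the NCD (4) were 0 with median centring, normexp or the fold threshold (at least 1.5 or at most 0.6), 1 with the authors' table and 2 without the filter, and the genes lower (2) were 1 with median centring, normexp or the fold threshold. On the HFD the genes higher (2) were 1 with median centring or only the groups compared and 0 with normexp or the fold threshold, and the genes lower (3) were 1 with quantile normalization and 0 with median centring, normexp or the fold threshold. Of MEF2 co-regulators, the genes higher on the NCD (2) were 1 with median centring and 0 with normexp or the fold threshold, the genes lower (2) were 0 with median centring, 1 with normexp and 0 with the fold threshold, and the genes higher on the HFD (1) were 2 with quantile normalization or the authors' table. Of targets, the genes lower on the NCD (5) were 2 with normexp or the fold threshold, and those lower on the HFD (5) were 3 with quantile normalization, median centring, normexp, the authors' table or only the groups compared and 2 with the fold threshold.

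Signs turned on the NCD with quantile normalization for Myf6 (0.0145), Chrng (0.0663) and Des (0.0569), with median centring for Mef2a A_52_P175157 (0.0197), Chrng (0.012) and Des (0.0118), and with the authors' table for Myf6 (0.0097), Mef2a A_52_P175157 (0.0224), Mef2d A_51_P394676 (0.006), Chrng (0.0404) and Des (0.0777). With normexp they turned for Myf6 (0.20), Pax7 (-0.50), Pax3 (-0.0368 and -0.54), Mef2a A_52_P175157 (0.18), Mef2c (0.11), Mef2d (0.18 and 0.0125), Tcf4 (-0.29), Msc (-0.76), Myh3 (-0.0541), Des (0.25) and Hey1 (-0.13), where the median of all probes moved to -0.55. Between diets in CTR, where that median was -0.64, they turned for Myog (-0.33) and Mef2c (0.17), and for the genotype by diet term, where it was 0.53, for Myog (0.42).

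Leaving out each array in turn gave 1 member on the NCD and 0 to 1 on the HFD. Partners higher ran from 1 to 4 on the NCD and 1 to 3 on the HFD, partners lower from 1 to 3 on the HFD, co-regulators higher from 1 to 3 on the NCD and 1 to 2 on the HFD, and targets lower from 3 to 5 on the HFD. Signs turned on the NCD for Mef2a A_52_P175157 (-0.11 to 0.0342), Chrng (-0.16 to 0.0274), Des (-0.0972 to 0.0418) and Hey1 (-0.0066 to 0.11), and on the HFD for Myod1 (-0.33 to 0.0448), Pax7 (-0.0547 to 0.29) and Id1 (-0.27 to 0.0388). They also turned for Myog between diets in AR113Q (-0.0127 to 0.30) and for the genotype by diet term of Myog (-0.29 to 0.0289) and Mef2d A_51_P394676 (-0.14 to 0.0228).

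Over all probes, 44.6% of the calls on the HFD were higher, against 56.7% with quantile normalization and 61.0% with median centring, and 47.2% on the NCD, against 53.7% and 56.0%. Median centring made 2388 calls on the NCD and 2454 on the HFD, and normexp 858 and 961, against 5625 and 5741. Signal over background limits Myf5 and 1 Mef2a probe, which were compared only in the setting without the filter on dim probes.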
